A study of Mus musculus with 9 samples.

Results

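The 10 genes described here encode enzymes of methionine, serine and folate metabolism: Mat2a, Mat2b, Mtr, Cbs, Cth, Phgdh, Shmt1, Shmt2, Mthfd1 and Mthfd2. They were taken by exact symbol from tables of 24356 genes, and all 10 were above 0 in every library, as were 14675 genes in all, which are the genes tested. The tables give expression in whole brown adipose tissue (BAT), the heat-producing fat depot, of mice labelled GHRH-KO, which lack growth hormone-releasing hormone, and of wild-type (WT) littermates. Both groups share a mixed C57BL6 and 129SV background and the same chow, and ages are not given in the sources used here. There were 2 KO females, 2 KO males, 3 WT females and 2 WT males, 1 library each. Values are FPKM, fragment counts divided by transcript length and by library size, so that levels of different genes are compared per length.

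One-carbon metabolism moves single carbon units between amino acids, folates and methyl acceptors. In the methionine cycle, methionine is turned into S-adenosylmethionine, the methyl donor of most methylation reactions, and is remade from homocysteine. Transsulfuration draws homocysteine off towards cysteine, and serine feeds both this route and the folate carriers that the SHMT and MTHFD enzymes charge and convert.

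The libraries held an estimated 21610000 to 26750000 fragments, read from the step that 1 fragment makes in low FPKM values. Between libraries, Spearman correlations reached 0.991, but KO male 1 reached only 0.924 to 0.934 with the others. Ghrh itself, the targeted gene, had 0.233 to 0.846 FPKM in the 4 libraries labelled KO and 0 in each of the 5 labelled WT, the reverse of what the labels give for that gene. What lies behind this was not tested, and KO and WT below are the labels as given. Ucp1, the uncoupling protein that defines brown adipocytes, was at 2164 to 2992 FPKM in KO and 1357 to 2325 FPKM in WT (log2 difference 0.52, limma adjusted p 0.0739). The 9 brown adipocyte markers had 4 positive and 5 negative differences, and none passed. The summed level of 10 lymphocyte markers was 249 FPKM in KO male 1 and 1.84 to 4.48 FPKM in the other 8 libraries. That of 6 macrophage markers was 403 FPKM in KO male 1, 24.6 to 34.6 FPKM in the other KO libraries and 40.9 to 98.6 FPKM in WT. All 6 had a negative log2 difference (median -0.48), where 37.5% of all genes were higher in KO and the median was -0.07. Cd163 was the 1 that passed (-0.92, limma adjusted p 0.0347), and it was at -0.99 without KO male 1. The sum of 10 skeletal muscle markers was 2217 to 10167 FPKM in KO against 360 to 1915 FPKM in WT. White adipocyte markers moved with genotype as well: their sum was 3.12 to 6.31 FPKM in KO and 8.77 to 54.3 FPKM in WT, with no overlap, and the median log2 difference of the 4 tested was -2.08 (Lep, the leptin gene, was the 1 that passed, at -3.21, limma adjusted p 0.0426). Fibroblast and progenitor markers summed to 105 to 183 FPKM in KO and 137 to 246 FPKM in WT, with a median of -1.03, and 3 of 5 (Lum, Col1a1 and Col3a1) were lower in KO (limma adjusted p 0.0418 to 0.0459). The calls of Lep, Lum, Col1a1 and Col3a1 were lost without KO male 1 (0.0609 to 0.0674). The part of these cells in the results below was not tested, and in whole tissue fewer cells of a type and less RNA per cell cannot be told apart.

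The upstream sequences of 5 of the enzymes are shown because these genes carry the patterns described below, namely the clearest KO difference (Mtr), the values that varied most between libraries (Cbs, Phgdh, Mthfd2), and, for contrast, a steady gene (Shmt2). Each is the 120 bases before the RefSeq start of the gene on GRCm38.p6, written along the gene's strand. All 5 genes lie on the minus strand, at chr13:12258114-12258233, chr6:83317605-83317724, chr3:98339970-98340089, chr17:31637206-31637325 and chr10:127522445-127522564 in the order printed. Capitals mark the CCAAT box on either strand in the first 4 and the NRF1 motif (GCGCA, any base, then GCGC) in Shmt2.
Mtr: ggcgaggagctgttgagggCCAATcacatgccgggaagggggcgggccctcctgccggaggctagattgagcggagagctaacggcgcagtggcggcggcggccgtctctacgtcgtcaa
Mthfd2: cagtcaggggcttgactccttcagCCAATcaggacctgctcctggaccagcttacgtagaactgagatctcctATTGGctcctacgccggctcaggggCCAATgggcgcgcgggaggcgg
Phgdh: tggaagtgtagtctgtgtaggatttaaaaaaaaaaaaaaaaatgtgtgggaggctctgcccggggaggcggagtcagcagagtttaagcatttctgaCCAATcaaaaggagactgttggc
Cbs: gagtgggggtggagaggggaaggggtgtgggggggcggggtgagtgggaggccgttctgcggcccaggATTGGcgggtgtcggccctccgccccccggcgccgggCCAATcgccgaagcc
Shmt2: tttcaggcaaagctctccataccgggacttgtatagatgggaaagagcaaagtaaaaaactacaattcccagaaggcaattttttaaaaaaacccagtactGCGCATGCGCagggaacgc

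Of the 10 enzymes, 9 had a RefSeq promoter entry, and in the 250 bases before the start 8 of the 9 held the letters CCAAT on either strand, as did 33.8% of 32851 windows over all genes. The GC box, GGGCGG, was found in 6 of the 9 and in 32.7% of all windows. The E-box CACGTG stood only before Cbs and in 6.02% of all windows, and the NRF1 motif only before Shmt2 and in 3.74%. The letters TGATGNAA, bound by ATF4 with C/EBP partners, and the cAMP response element TGACGTCA were in none of the 9 windows, against 3.45% and 1.55% of all windows. The CCAAT box of Mtr began 101 bases before the start, with another at 151, and Mthfd2 had 3 of them within 96 bases. The Mthfd2 start used by RefSeq lies within the longer GENCODE gene. Such matches are letters only and were not tied to binding or to expression.

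The levels of the 10 enzymes spanned a wide range. Mat2a was the most abundant, with a median of 42.0 FPKM over the 9 libraries, followed by Mat2b (26.2 FPKM) and Shmt1 (14.4 FPKM), and the ranges of Mat2a, Mat2b and Shmt1 did not overlap. Shmt2 (10.8 FPKM) and Mthfd1 (9.76 FPKM) overlapped each other and Shmt2 overlapped Shmt1. Phgdh (2.99 FPKM), Cth (2.35 FPKM), Mtr (2.32 FPKM), Cbs (0.653 FPKM) and Mthfd2 (0.587 FPKM) followed, and each overlapped its neighbour in this order. The spread between libraries ran the other way in part: Mat2b differed 1.20-fold between its lowest and highest library, Mthfd1 1.32-fold and Shmt2 1.36-fold, while Mthfd2 differed 7.81-fold, Phgdh 9.87-fold and Cbs 12.4-fold.

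**Figure D1:**
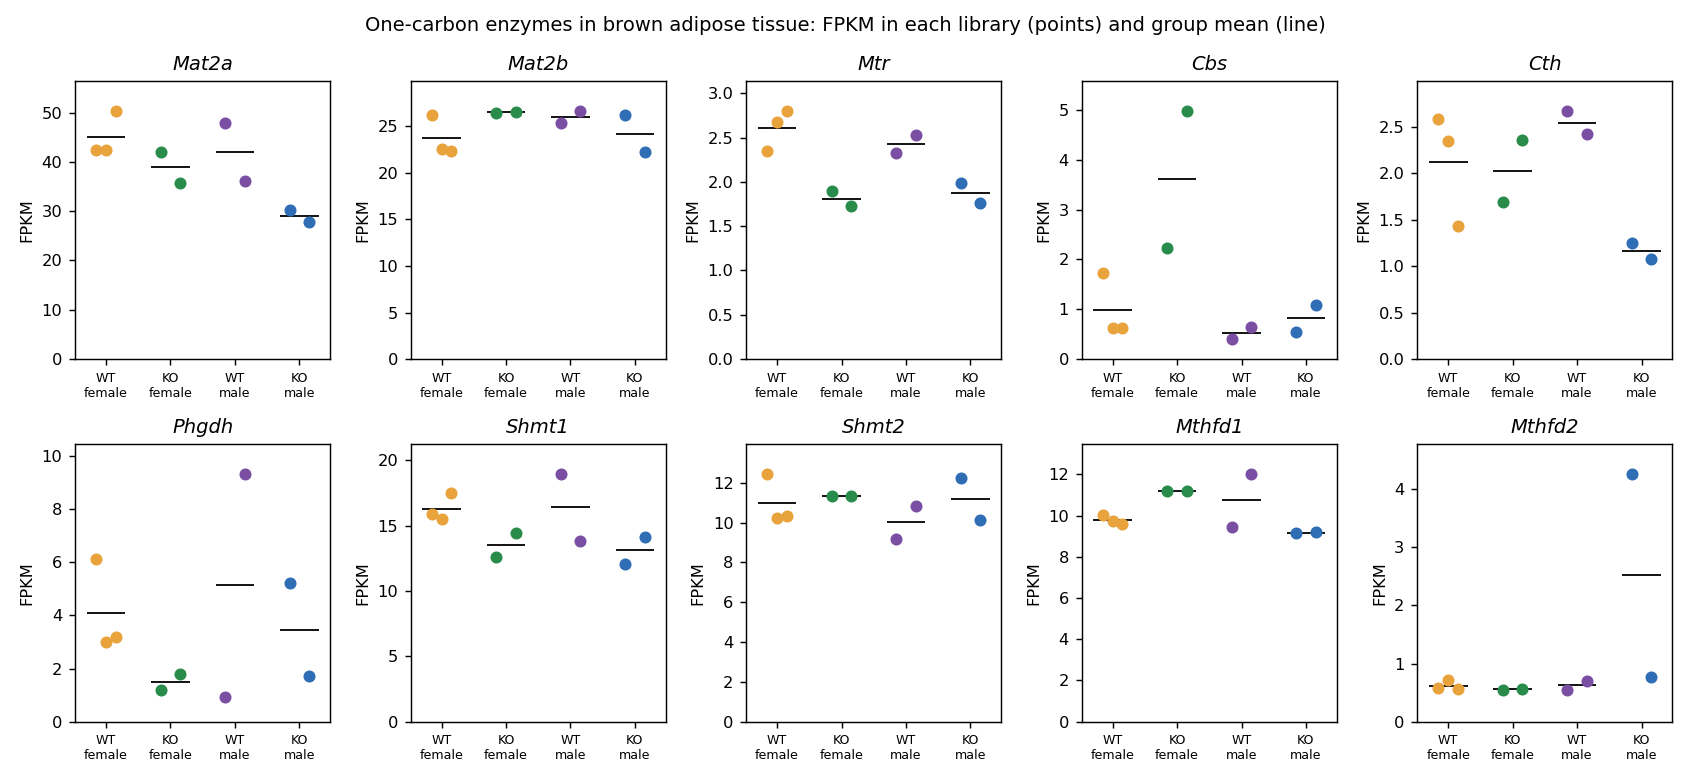
FPKM of each of the 10 enzymes (vertical axes, each from 0) in the 9 libraries, grouped by genotype and sex, with 1 point per library and a line at each group mean. All 4 KO points of Mtr lie below all 5 WT points, and the single high point of Mthfd2 is KO male 1.

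Whether the enzymes differed between KO and WT was asked first with the sexes averaged. Of the 10 enzymes, 0 passed an adjusted p under 0.05 in limma, a moderated linear model fitted over all 14675 genes, where 529 genes (3.6%) passed. When KO male 1 was left out, 0 of the enzymes and 442 of all genes passed. The 529 genes were 210 higher (1.43%) and 319 lower (2.17%) in KO, a split that depends on scaling. It was 130 higher and 92 lower after centring each library on its median, 228 and 216 after quantile normalization, and 246 and 816 with equal FPKM sums. At an unadjusted p under 0.05 there were 5 of the 10 enzymes (Mtr, Mat2a, Cbs, Cth and Shmt1), against 20.2% of all genes. The exact two-sided permutation test, over all ways to label 4 of the 9 libraries KO, gave a p under 0.05 for Mtr, Mat2a and Shmt1, against 17.7% of all genes. The median log2 difference of the enzymes, KO minus WT, was -0.15, with 4 higher and 6 lower. Over all genes the median was -0.07, and 37.5% were higher in KO.

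**Figure D2:**
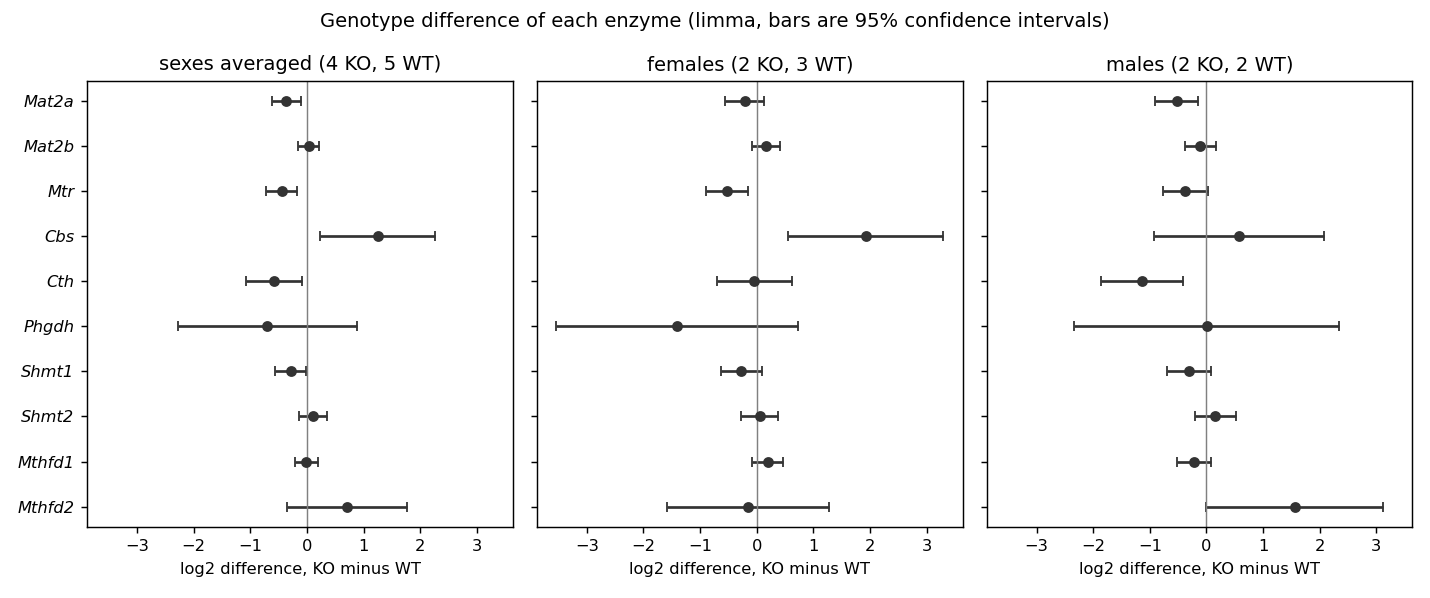
Log2 difference, KO minus WT, of each enzyme (horizontal axes) with the sexes averaged, in females and in males, as points with 95% confidence intervals from limma. The intervals of Mat2b, Shmt2 and Mthfd1 are narrow and span 0, and those of Phgdh, Cbs and Mthfd2 are wide.

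In the methionine cycle, the clearest difference was that of Mtr, methionine synthase, which remakes methionine from homocysteine with a methyl group from folate (chr13:12182712-12258113, minus strand). Mtr was at 1.90 and 1.73 FPKM in the KO females, 1.99 and 1.77 FPKM in the KO males, 2.35, 2.68 and 2.80 FPKM in the WT females and 2.32 and 2.54 FPKM in the WT males. The groups did not overlap: the highest KO library lay below the lowest WT library, a separation seen for 9.07% of all genes in either direction for 6.04% with KO lower and for 3.03% with KO higher. The mean was 1.84 ± 0.121 FPKM in KO and 2.54 ± 0.207 FPKM in WT (SD, n = 4 and 5). On the log2 scale Mtr differed by -0.45 (SE 0.12, 95% confidence interval -0.72 to -0.18, a ratio of 0.733), with a limma adjusted p of 0.0762, and under the alternatives tried that p lay between 0.0508 and 0.231, above the threshold in each. The exact permutation p was 0.00794, two-sided, the smallest that the design allows. The difference of Mtr was -0.52 in females and -0.37 in males. The study's methods name a linear model of sex, genotype and their interaction with an unadjusted p under 0.01. The model was fitted here with WT and female as the reference levels, so that its genotype term compares the females. It passed Mtr as the 1 enzyme of 10, where 3.43% of all genes passed, 2.04% lower and 1.38% higher in KO. That pass was lost with median centring and with quantile normalization, and without KO female 1, KO female 2, WT female 2 or WT female 3. The estimated number of Mtr fragments was 326 to 569 per library. The white adipocyte and fibroblast markers given above were also lower in KO, as were the macrophage markers outside KO male 1. All 5 endothelial markers were lower too (0 passed), and all 10 skeletal muscle markers were higher. The part of these cells in the Mtr difference was not tested.

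Mat2a encodes the catalytic subunit of the S-adenosylmethionine synthetase used outside the liver (chr6:72432799-72439558, minus strand). It was at 42.0 and 35.8 FPKM in the KO females, 30.2 and 27.7 FPKM in the KO males, 42.4, 42.3 and 50.4 FPKM in the WT females and 48.0 and 36.2 FPKM in the WT males. Of the 4 KO libraries 3 lay below every WT library, and KO female 1 lay within the WT range. The Mat2a log2 difference was -0.37 (SE 0.11, 95% confidence interval -0.62 to -0.11, limma adjusted p 0.108), at -0.21 in females and -0.53 in males, and the test of the difference between the sexes gave -0.32 (limma adjusted p 0.738). The exact permutation p of Mat2a was 0.0397, two-sided, and 0.135 after centring each library on its median, 0.0635 after quantile normalization. It was also above 0.05 when any 1 of KO female 2, KO male 1, KO male 2, WT female 1, WT female 2, WT female 3 or WT male 1 was left out (0.0536 to 0.0893).

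Mat2b, the regulatory subunit of the same synthetase (chr11:40679314-40695203, minus strand), was the steadiest of the enzymes. Its level was 22.3 to 26.6 FPKM in KO and 22.4 to 26.7 FPKM in WT, and the groups overlapped almost fully. The Mat2b log2 difference was 0.03 (95% confidence interval -0.16 to 0.22, limma adjusted p 0.902), and it turned to -0.03 without KO male 1.

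Of the transsulfuration enzymes, Cbs, cystathionine beta-synthase, joins homocysteine to serine (chr17:31608894-31637238, minus strand). Cbs was at 2.23 and 4.98 FPKM in the KO females, 0.534 and 1.09 FPKM in the KO males, 1.73, 0.615 and 0.631 FPKM in the WT females and 0.403 and 0.653 FPKM in the WT males. Both KO females lay above all WT libraries, while both KO males lay within the WT range. The Cbs log2 difference was 1.25 (SE 0.44, 95% confidence interval 0.24 to 2.27, limma adjusted p 0.159), and the two-sided exact permutation p was 0.151, or 0.0357 without KO male 1 (log2 difference 1.70). It was 1.93 in females (SE 0.59, limma adjusted p 0.259) and 0.58 in males (0.059 without KO male 2, 0.23 without WT male 1, 0.93 without WT male 2 and 1.09 without KO male 1), and the difference between the sexes in this contrast was -1.35 (95% confidence interval -3.38 to 0.68, limma adjusted p 0.732). With genotypes averaged, Cbs was lower in males than in females by -1.45 on the log2 scale (SE 0.44, limma adjusted p 0.331), and 0 of the 10 enzymes passed for sex, as against 0.0136% of all genes.

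Cth, cystathionine gamma-lyase, releases cysteine in the next step (chr3:157894248-157925077, minus strand). Cth was at 1.69 and 2.36 FPKM in the KO females, 1.25 and 1.08 FPKM in the KO males, 2.59, 2.35 and 1.43 FPKM in the WT females and 2.67 and 2.42 FPKM in the WT males. Both KO males lay below all WT libraries, and the females of both genotypes overlapped. The Cth log2 difference was -0.59 (SE 0.21, 95% confidence interval -1.08 to -0.10, limma adjusted p 0.170), with a two-sided exact permutation p of 0.103, at -0.04 in females and -1.13 in males. The difference between the sexes in this contrast was -1.09 (95% confidence interval -2.08 to -0.11, limma adjusted p 0.688). An estimated 44.8 to 128 fragments stood behind each Cth value, so counting error is a larger share of its spread than for Mat2a, with 2149 to 4271.

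Phgdh, phosphoglycerate dehydrogenase, takes the first step from glucose towards serine (chr3:98313170-98339990, minus strand). Phgdh was at 1.18 and 1.81 FPKM in the KO females, 5.22 and 1.71 FPKM in the KO males, 6.13, 2.99 and 3.17 FPKM in the WT females and 0.946 and 9.34 FPKM in the WT males. The highest and the lowest value were both WT males, and the KO libraries lay between them. The Phgdh log2 difference was -0.70 (SE 0.68, 95% confidence interval -2.28 to 0.88, limma adjusted p 0.653), and it turned to 0.13 without WT male 2 and was -1.53 without WT male 1.

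Psat1, the transaminase that follows Phgdh in serine synthesis, was at 0.940 to 3.11 FPKM in KO and 2.04 to 8.05 FPKM in WT (log2 difference -0.72, limma adjusted p 0.448). That Psat1 difference was -0.23 without WT male 2, -0.46 without KO female 1 and -1.21 without WT male 1. Over the 9 libraries, Phgdh and Psat1 had a Pearson r of 0.799 on log2 FPKM (exact permutation p = 0.0071). Their Spearman rho was 0.70 (exact permutation p = 0.0433). They were the 1 pair of genes for which a p was computed, and the pair was not one of the planned tests. The permutation exchanged libraries across genotype and sex, so group differences and shared tissue makeup can enter both p. The share of other gene pairs correlated this closely was not computed. Without WT male 1 and WT male 2, the libraries farthest from the median of Phgdh, r was 0.757 over 7 libraries. With the genotype means removed from both genes r was 0.768, and with the means of genotype and sex removed it was 0.840, both given as a description. WT male 2, the highest for both genes, also had the highest summed level of 7 white adipocyte markers, 54.3 FPKM against 8.77 to 37.1 FPKM in the other WT libraries and 3.12 to 6.31 FPKM in KO, and the part of these cells was not tested. Psph, which completes the route, was at 10.1 to 11.6 FPKM in KO and 7.59 to 11.4 FPKM in WT (log2 difference 0.13, limma adjusted p 0.535).

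**Figure D3:**
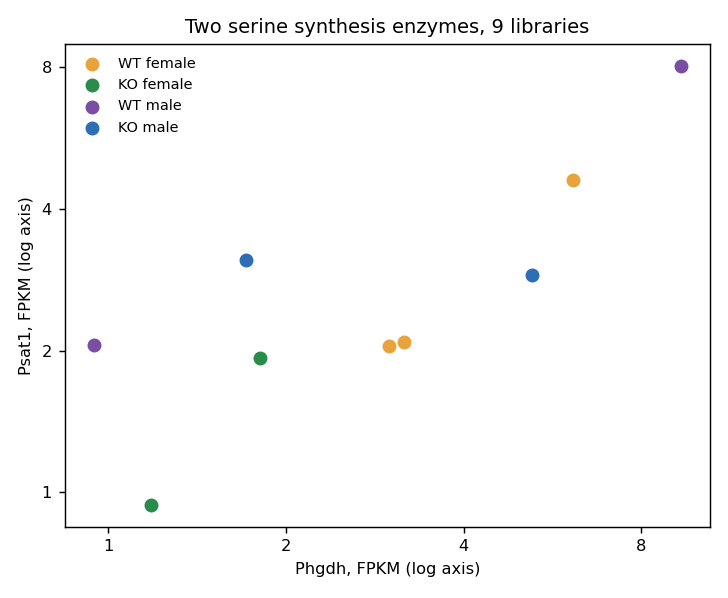
Phgdh (horizontal axis) against Psat1 (vertical axis), both in FPKM on log axes, with 1 point per library coloured by genotype and sex. WT male 2 is highest for both genes, and KO female 1 is lowest for Psat1.

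The serine hydroxymethyltransferases move a carbon from serine to folate and leave glycine. Shmt1, the cytosolic form (chr11:60788104-60811718, minus strand), was at 12.6 and 14.4 FPKM in the KO females, 12.1 and 14.1 FPKM in the KO males, 15.9, 15.5 and 17.5 FPKM in the WT females and 19.0 and 13.8 FPKM in the WT males. Of the 4 KO libraries 2 lay below all WT libraries, and WT male 2 was the 1 WT library within the KO range. The Shmt1 log2 difference was -0.29 (SE 0.12, 95% confidence interval -0.56 to -0.02, limma adjusted p 0.211), at -0.27 in females and -0.31 in males. Without WT male 1 it was -0.18, and the male difference was then -0.080. The exact permutation p of Shmt1 was 0.0397, two-sided, and 0.262 after median centring and 0.119 after quantile normalization. With labels permuted within each sex it was 0.05, not under the threshold, while that of Mtr and of Mat2a was 0.0167. It was also above 0.05, with labels permuted over all libraries, when any 1 library other than WT male 2 was left out (0.0714 to 0.0893).

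Shmt2, the mitochondrial form (chr10:127517123-127522444, minus strand), was at 10.1 to 12.2 FPKM in KO and 9.18 to 12.5 FPKM in WT, with the KO libraries inside the WT range. The Shmt2 log2 difference was 0.10 (95% confidence interval -0.14 to 0.35, limma adjusted p 0.664).

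Mthfd1, the cytosolic enzyme with 3 activities that interconvert folate carriers (chr12:76255298-76319803, plus strand), had nearly equal means, 10.2 ± 1.16 FPKM in KO and 10.2 ± 1.07 FPKM in WT (SD, n = 4 and 5; log2 difference -0.01, 95% confidence interval -0.22 to 0.19, limma adjusted p 0.967). Within the sexes the libraries were arranged in opposite ways with no overlap, as for 3.35% of all genes and, among the enzymes, also for Mthfd2. Mthfd1 was at 11.2 FPKM in both KO females against 10.05, 9.76 and 9.60 FPKM in the WT females, and at 9.15 and 9.19 FPKM in the KO males against 9.44 and 12.0 FPKM in the WT males. The test of the difference between the sexes gave -0.41 (SE 0.18, 95% confidence interval -0.82 to -0.00051, limma unadjusted p 0.0498, adjusted p 0.707). No gene passed that test after adjustment (0.0%), and 1028 genes (7.01%) had an unadjusted p under 0.05.

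Mthfd2, the mitochondrial enzyme that is known to be low in most adult tissues and high in dividing cells and activated lymphocytes (chr6:83305691-83325908, minus strand), was dominated by 1 library. Mthfd2 was at 0.550 and 0.562 FPKM in the KO females, 4.27 and 0.776 FPKM in the KO males, 0.587, 0.709 and 0.564 FPKM in the WT females and 0.546 and 0.700 FPKM in the WT males. KO male 1 stood apart at 4.27 FPKM, and the other 8 libraries lay between 0.546 and 0.776 FPKM, which is an estimated 25.9 fragments or more per library. The Mthfd2 log2 difference was 0.70 (SE 0.46, 95% confidence interval -0.36 to 1.77, limma adjusted p 0.456). It was 0.09 (adjusted p 0.806) without KO male 1 and 1.32 (adjusted p 0.0213) without KO male 2, which left KO male 1 as the lone KO male, assumed to vary like the other groups. In the same library the 10 lymphocyte markers summed to 249 FPKM and the 12 markers of dividing cells to 45.6 FPKM, against at most 4.48 and 28.6 FPKM elsewhere. The part of these cells in the Mthfd2 value was not tested.

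**Figure D4:**
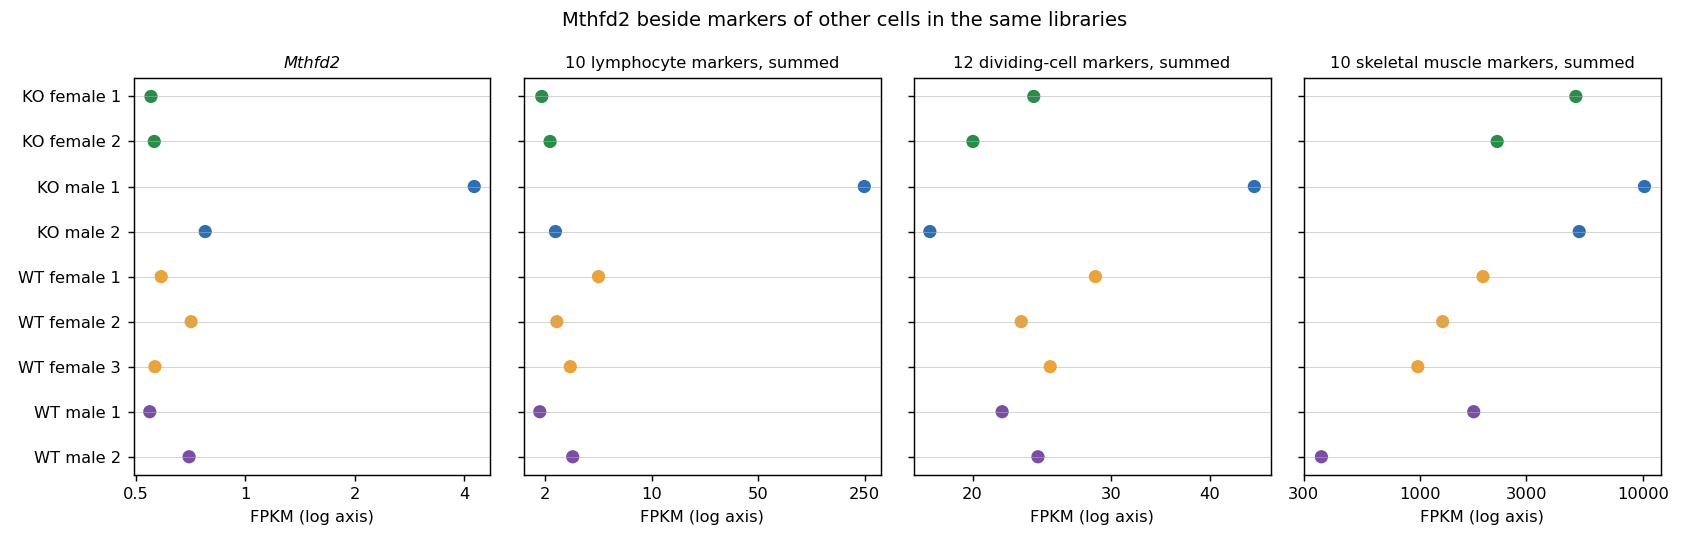
Mthfd2 and the summed levels of 10 lymphocyte, 12 dividing-cell and 10 skeletal muscle markers in each library (rows), in FPKM on log axes. KO male 1 is the highest row in all 4 panels, with 4.27 FPKM of Mthfd2 and 249 FPKM of lymphocyte markers.

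By sex, 0 of the 10 enzymes passed in females, where 0.0204% of all genes passed, and 0 in males, where 0.0136% passed. Per enzyme, the lowest adjusted p in females was that of Mtr (0.252) and in males that of Cth (0.130).

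The wider pathway was described with 10 lists of 81 other genes, of which 73 were tested and 4 passed in limma with the sexes averaged, 5.48% against 3.6% of all genes. The 4 were Ahcyl2, Gnmt, Gamt and Trib3. In the methionine cycle list 3 of 8 tested genes passed, 1 higher and 2 lower. Ahcyl2, related to the hydrolase that clears S-adenosylhomocysteine, fell from 17.1 to 24.6 FPKM in WT to 8.87 to 11.7 FPKM in KO, with no overlap (log2 difference -1.11, SE 0.12, limma adjusted p 0.0185). Ahcy, the hydrolase itself, differed by -0.07 (adjusted p 0.802). Gamt, which uses S-adenosylmethionine to make creatine, was lower in KO at 2.43 to 4.70 FPKM against 4.40 to 7.65 FPKM (log2 difference -0.99, adjusted p 0.0352, and 0.0519 without KO male 1). Gnmt, which methylates glycine, was higher in KO at 2.39 to 3.70 FPKM against 1.01 to 2.65 FPKM (log2 difference 0.89, adjusted p 0.0323), with 1.67 in females and 0.10 in males (difference between the sexes, adjusted p 0.614). Nnmt, which methylates nicotinamide, differed by -0.93 (adjusted p 0.0544) and passed without WT male 1 (-1.20, adjusted p 0.0062). Markers of white adipocytes and fibroblasts, and of macrophages outside KO male 1, were lower in KO. All 5 endothelial markers were lower as well (median log2 difference -0.35, 0 passed). All 10 skeletal muscle markers were higher in KO (median 2.28, 3 passed). The part of these cells in the 4 called genes was not tested.

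None of the tested genes passed in the lists of methionine salvage and polyamine synthesis (9 tested), cysteine use (9), serine synthesis (2), glycine cleavage (4), choline oxidation (3), other folate enzymes and carriers (15), purine synthesis (6) and Myc with its cofactors (3). In cysteine use, 8 of 9 tested genes had a negative difference, with a median of -0.19. Over all genes 37.5% were higher in KO, and the median was -0.07, or -0.02 after median centring. The nearest to the threshold were Sqrdl (now Sqor), which oxidises sulfide in mitochondria (log2 difference -0.34, limma adjusted p 0.0520), and Cdo1, which oxidises cysteine (-0.29, adjusted p 0.0567). Neither side of the threshold was stable for Sqrdl, Cdo1 and Csad. They passed with equal FPKM sums (limma adjusted p 0.0212, 0.0299 and 0.0360), where 246 of all genes were called higher and 816 lower in KO. Under other alternatives their limma adjusted p rose as high as 0.323, 0.474 and 0.539. Without KO male 2, which left 1 KO male, the log2 difference was -0.37 for Sqrdl and -0.36 for Csad. Among the folate genes the median difference was -0.0027, and the folate carrier Slc19a1 came closest (-0.49, limma adjusted p 0.0924). Under the alternatives tried its limma adjusted p rose as high as 0.330, and without KO male 2 its log2 difference was -0.63. In purine synthesis, which uses formyl-folate, the 6 differences ran from -0.21 (Pfas) to 0.19 (Adsl).

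Of 14 tested genes in the list of Atf4 and its targets 1 passed, where 3.6% of all genes passed. The list holds stress-response genes known to rise with serine and one-carbon enzymes. Its differences were 7 positive and 7 negative, with a median of -0.0090. Trib3, a pseudokinase, was higher in KO at 3.90 to 5.22 FPKM against 1.40 to 2.64 FPKM, with no overlap (log2 difference 1.10, SE 0.18, limma adjusted p 0.0347). Atf4 itself differed by 0.04 (adjusted p 0.891) and Asns, asparagine synthetase, by -0.34 (adjusted p 0.20). The call of Ahcyl2 was lost without any 1 of KO female 1, WT female 1 or WT female 2. Those of Gnmt, Gamt and Trib3 were each lost without any 1 of KO female 1, KO female 2, WT female 1, WT female 2 or WT male 2, and those of Gnmt and Trib3 also without WT female 3.

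**Figure D5:**
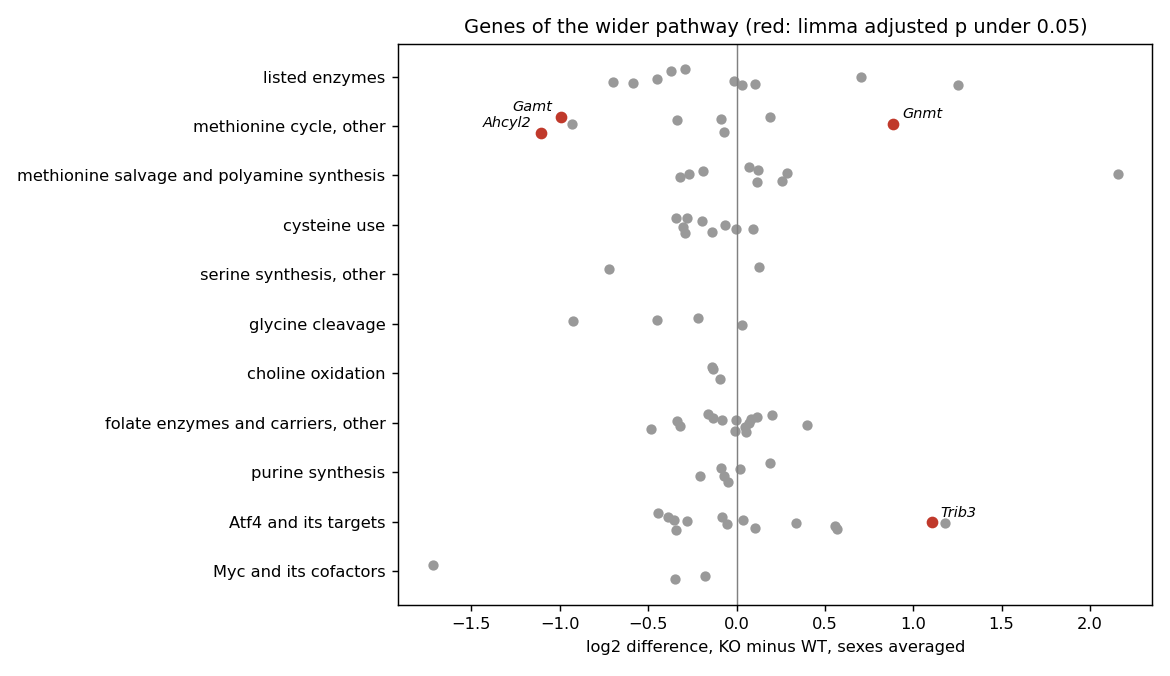
Log2 difference, KO minus WT with the sexes averaged (horizontal axis), of each tested gene of the 10 enzymes and of the 10 wider lists (rows), with 1 point per gene. The red points, which passed an adjusted p under 0.05 in limma, are Ahcyl2, Gamt, Gnmt and Trib3, and none of the 10 enzymes is red.

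The genes whose log2 FPKM followed the enzymes with the lowest p most closely over the 9 libraries were ranked by Pearson correlation among all tested genes, as a description. For Mtr these were Hyou1 (r = 0.980), Gtf2a1 (0.970), 9430020K01Rik (0.966), Zfp568 (0.960) and 3830417A13Rik (0.952). Of these, Hyou1, a chaperone of the endoplasmic reticulum, passed in limma (log2 difference -0.58, adjusted p 0.0352). For Mat2a the first was Lztfl1 (r = 0.976), followed by Hs2st1, Fahd2a, Clcn4-2 and Vps25 (0.949 to 0.954). For Cbs they were Chchd10 (r = 0.947), Gstm7 (0.945), Ndufa12 (0.942), 1110001J03Rik (0.921) and Prr36 (0.909). The libraries share depth and tissue makeup, which also enter such correlations.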

How the data were processed

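Poly(A)-selected RNA of whole BAT was sequenced with paired ends by the authors, who deposited 1 table of FPKM per library. The labels name bcl2fastq 1.8.4, TopHat2 2.0.11, Bowtie and mm10 (GRCm38), and whether counting used strand is not given in the sources used here. Only the FPKM were used. Depth was estimated from the 1-fragment step of genes with a single transcript over 2 kb.

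Genes above 0 FPKM in all 9 libraries were tested on log2 FPKM without a pseudocount by limma 3.58.1 (R 4.3.3; mean-variance trend, a mean per genotype and sex, Benjamini-Hochberg adjustment over all tested genes, threshold 0.05). The ordinary linear model of the methods (genotype, sex and interaction, p under 0.01, with WT and female set as reference here) and exact permutation tests were also run. Permutation used the plain difference of log2 means. The model was tested on simulated data. Each library is from 1 mouse. Libraries are numbered by accession order. Counting error could not be given as intervals, since no counts were used.

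The enzymes and the gene lists were chosen with earlier results of these data known. Named genes were drawn from the 10 enzymes, the called genes of each pathway list or its 3 genes of lowest p where none was called, the 5 nearest patterns of 3 enzymes, Ghrh and Ucp1. Ahcy, Nnmt, Atf4, Asns, Amd1 and the other named cell markers were added after their values were seen. Those markers are a selection: the 3 skeletal muscle markers that passed, all higher in KO, are not named. Gene positions are from GENCODE M21 and promoter sequences from RefSeq (GRCm38.p6). Tables and figures were made in Python 3.11.15 with scipy 1.17.1, numpy 2.4.6, matplotlib 3.10.9 and pandas 2.3.3.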

Additional observations from a re-analysis of the deposited data

Results flagged for a closer look

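In groups of 4 KO and 5 WT libraries, the highest or lowest library was set against the others by its gap divided by the group's range. Both were taken on log2 FPKM. Of 20 such groups 4 passed Dixon's 95% critical value, where chance gives about 1 in 20. They were Mat2b in KO, with KO male 2 low (gap over range 0.912), Mthfd2 in KO, with KO male 1 high (0.832), Cth in WT, with WT female 3 low (0.790), and Mthfd1 in WT, with WT male 2 high (0.743).

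For Mthfd1 and Mthfd2 the KO and WT libraries separated in opposite directions in females and males. The difference between the sexes was -0.41 on the log2 scale for Mthfd1 (limma adjusted p 0.707) and 1.71 for Mthfd2 (adjusted p 0.718), so neither passed. The same arrangement was seen for 491 genes, 3.35% of those tested. For Mthfd2 the females were separated by only 0.562 against 0.564 FPKM.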

How the results depend on the processing

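No paired analysis was possible because the labels carry no replicate numbers shared between groups. The number of enzymes called by limma was 0 under every alternative of normalization, filter, pseudocount and model in all 5 contrasts. It ran from 0 to 1 when 1 library was left out, and the 1 was Mthfd2 without KO male 2 in the contrasts of both sexes, males, interaction and sex.

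Over all genes, the 529 calls of genotype with the sexes averaged became 170 without a filter, 222 with median centring, 1062 with the same FPKM sum, 55 with array weights, 34 without the mean-variance trend, and 8 to 1105 with 1 library left out (8 without KO female 1, 9 without WT female 1, 23 without WT female 2, 27 without KO female 2, 29 without WT male 2, 37 without WT female 3, 816 without WT male 1 and 1105 without KO male 2). The 3 calls in females became 11 with a mean over 1 FPKM, 11 with the same sum, 372 with array weights, 0 without the trend, and 0 to 19 with 1 library left out. The 2 calls in males became 0 with log2(FPKM + 1), 19 with a mean over 1 FPKM, 1 without a filter, 1 with quantile normalization, 236 with the same sum, 0 with array weights, 0 without the trend, and 0 to 1293 with 1 left out. The interaction gave 0 to 721 calls and sex, with 2, gave 10 without a filter, 1 with median centring and 1 to 803 with 1 left out. The linear model's 503 became 777 with male as the reference, 1107 with sum-to-zero coding and 225 to 553 with 1 left out. Its 1 enzyme became 0 with median centring, quantile normalization or male as the reference, and 0 to 2 with 1 library left out. The 3 enzymes with an exact permutation p under 0.05 became 1 with median centring or quantile normalization, and 1 to 3 with 1 left out. In the wider lists, Gnmt and Gamt were lost with median centring (limma adjusted p 0.0579 and 0.0648) and quantile normalization (0.0709 and 0.0547), and Gnmt without the interaction term (0.118). Gnmt, Gamt and Trib3 were lost without a filter (0.0507, 0.0535 and 0.0507) and with array weights (0.0596, 0.0745 and 0.0597), and all 4 called genes without the trend (Ahcyl2 0.0532, the others up to 0.0692). Calls were gained with equal FPKM sums for Sqrdl (0.0212), Cdo1 (0.0299), Csad (0.0360), Nnmt (0.0366), Gcsh (0.0382), Slc19a1 (0.0430) and Srm (0.0491), with a mean over 1 FPKM for Sqrdl (0.0405) and Nnmt (0.0446), and with either pseudocount for Sqrdl (0.0487 and 0.0478). Under other alternatives the limma adjusted p rose as high as 0.323 (Sqrdl), 0.474 (Cdo1), 0.539 (Csad), 0.643 (Gcsh) and 0.330 (Slc19a1). The cause of these moves was not tested.

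Signs turned only for differences that were near 0 or wide. With equal FPKM sums these were Mat2b (-0.040, sexes averaged), Atf4 (-0.032) and Phgdh in males (-0.087). Median centring turned Mthfd1 (0.046, and 0.057 as the plain mean difference) and Cth in females (0.069). Quantile normalization turned Mthfd1 (0.017, and 0.028 as the plain difference), Cth in females (0.056), Mthfd2 in females (0.045), Mat2b in males (0.0086) and the interaction of Mtr (-0.025). Phgdh in males, at 0.0065, became -0.019 with a pseudocount of 0.1, with or without the filter, and -0.13 with 1. Mthfd1 became 0.0060 without the interaction term, and Cth in females 0.042 with array weights. With 1 library left out, the range with the sexes averaged crossed 0 for Mat2b (-0.030 to 0.087), Phgdh (-1.53 to 0.13), Mthfd1 (-0.10 to 0.075, and -0.049 to 0.062 as the plain difference), Myc (-0.92 to 0.23), Ahcy (-0.18 to 0.040) and Atf4 (-0.014 to 0.10). So did Cth in females (-0.30 to 0.20), Mat2b and Phgdh in males (-0.22 to 0.0097 and -1.65 to 1.66), and the interactions of Phgdh (-0.24 to 3.07), Shmt1 (-0.27 to 0.19) and Shmt2 (-0.030 to 0.24).

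Median centring moved the median interaction of all genes from -0.01 to -0.12. The interactions given above for Mat2a, Cbs, Cth, Mthfd1 and Mthfd2 are from the fit without centring and were not adjusted for that shift.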

Other observations

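Ratios within a library, chosen after the values were seen and given as a description, compare isoforms, subunits or enzymes of consecutive steps. The ratio of Mat2a to Mat2b was 1.33 ± 0.187 in KO and 1.8 ± 0.334 in WT (SD, n = 4 and 5), and that of Shmt1 to Shmt2 was 1.19 ± 0.178 and 1.57 ± 0.332. The ratio of Cbs to Cth was 1.22 ± 0.70 in KO and 0.358 ± 0.202 in WT. In each of the 3 ratios the KO and WT libraries overlapped. Mthfd1 exceeded Mthfd2 by 2.15-fold in KO male 1 and by 11.9 to 20.4-fold in the other libraries.

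Amd1, which supplies the aminopropyl groups of polyamines, was at 4.99 FPKM in KO male 2 and at 0.0132 to 0.0182 FPKM in the other 8 libraries. Those 8 values are at the floor: on a transcript of 1 kb, 1 fragment alone makes 0.0374 to 0.0463 FPKM in these libraries. The size of a difference from such values is therefore not reliable. The Amd1 difference (log2 2.16, limma adjusted p 0.498) rests on KO male 2. It was 4.27 without KO male 1, which left KO male 2 as the lone KO male. Mycl, a member of the Myc family, was at 0.209 to 1.58 FPKM in KO and 0.851 to 4.69 FPKM in WT (log2 difference -1.72, limma adjusted p 0.145), and leaving out 1 library gave -2.45 to -0.99 and an adjusted p as high as 0.363. Of the alternatives run, it passed only without KO male 1 (-2.45, adjusted p 0.0288), which left KO male 2, the lowest library, as the lone KO male.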
